A study of Homo sapiens with 4 samples.

Results

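The cytosolic ribosomal protein genes are described here in 2 human lines of triple-negative breast cancer (TNBC). Both lines, MDA-MB-231 and SUM159, were kept for 72 h in 1 μM mebendazole (MBZ), an anthelmintic that disrupts microtubules, or in its solvent DMSO. Members were the protein-coding genes with RPL or RPS symbols together with RPSA, RPLP0, RPLP1 and RPLP2, leaving out the RPS6K kinases and 2 genes on chromosome Y. This rule took 84 of the 58735 genes in the table, 32 of the small and 52 of the large ribosomal subunit, on 21 chromosomes. Of these, 77 were standard ribosomal protein genes and 7 were paralogs (RPL3L, RPL7L1, RPL10L, RPL22L1, RPL26L1, RPL39L and RPS27L). RNA enriched for mRNA was sequenced from 1 library per condition, MDA-MB-231 DMSO, MDA-MB-231 MBZ, SUM159 DMSO and SUM159 MBZ, and values given for all 4 libraries follow this order. The labels give no engineered allele for either line. The lines were grown in different media, SUM159 cells with insulin and hydrocortisone, so a difference between the lines cannot be told apart from one of medium. The counts per library summed to between 17143139 and 24897586. The mesenchymal gene VIM had between 20703 and 54409 counts, while the epithelial gene CDH1 had at most 12, the estrogen receptor gene ESR1 at most 18, and the progesterone receptor gene PGR 0 in all 4 libraries. EPCAM, another epithelial gene, had 144 and 190 counts in the MDA-MB-231 libraries and 6 and 9 in those of SUM159 cells. ERBB2, the HER2 gene, was detected with between 1216 and 1996 counts.

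Ribosomal proteins assemble with ribosomal RNA into the small subunit, which decodes the mRNA, and the large subunit, which forms the peptide bond. Their transcripts are among the most abundant in dividing cells and most begin with a 5′ terminal oligopyrimidine (TOP) tract, a C followed by a run of C and T, through which mTOR signaling and the RNA-binding protein LARP1 are known to control their translation and stability. RPL5 and RPL11 form with 5S ribosomal RNA a particle that can bind MDM2, the ubiquitin ligase of p53, when ribosome assembly is disturbed.

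The TOP tract was visible in the sequence around the start of most members. Of the 84 members, 67 were matched to a RefSeq transcript start (GRCh38.p14), and sequences were read in the sense of the transcript. Of these 67, 43 (64.2%) had C as the first base followed by an unbroken run of C or T to a total of at least 5 bases. Of all 27305 RefSeq starts, 1104 (4.04%) had such a run. With a run starting within 5 bases on either side, the numbers were 51 members (76.1%) and 5749 of all starts (21.1%). The windows listed here hold 10 bases before and 20 bases from the annotated start, with the run that begins at the start in capitals. The first 6 are examples with a run of at least 9 bases, not the 6 longest. The RPL22 and RPL26 pairs set a standard gene beside its paralog, and RPS27L and RPL7L1 are paralogs without a run.
RPL39 (chrX:119791611-119791640, minus strand): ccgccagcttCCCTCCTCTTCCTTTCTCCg
RPL7A (chr9:133348208-133348237, plus strand): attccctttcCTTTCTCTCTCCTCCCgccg
RPS24 (chr10:78033853-78033882, plus strand): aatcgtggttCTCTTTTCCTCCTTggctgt
RPLP2 (chr11:809957-809986, plus strand): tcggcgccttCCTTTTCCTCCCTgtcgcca
RPL35 (chr9:124861938-124861967, minus strand): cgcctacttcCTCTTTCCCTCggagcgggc
RPS6 (chr9:19380217-19380246, minus strand): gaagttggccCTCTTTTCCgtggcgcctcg
RPL22 (chr1:6199576-6199605, minus strand): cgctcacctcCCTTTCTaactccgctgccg
RPL22L1 (chr3:170870176-170870205, minus strand): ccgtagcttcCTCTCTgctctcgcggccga
RPL26 (chr17:8383174-8383203, minus strand): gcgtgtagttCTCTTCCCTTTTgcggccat
RPL26L1 (chr5:172958719-172958748, plus strand): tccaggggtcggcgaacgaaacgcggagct
RPS27L (chr15:63157458-63157487, minus strand): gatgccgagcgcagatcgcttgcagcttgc
RPL7L1 (chr6:42879606-42879635, plus strand): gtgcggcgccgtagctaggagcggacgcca
The run was 19 bases in RPL39, 16 in RPL7A, 14 in RPS24 and 12 in RPL26, against 7 in RPL22 and 6 in RPL22L1. The runs depend on which transcript start RefSeq gives, and a shift of a few bases can hide one.

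Ribosomal protein transcripts took a larger share of the SUM159 libraries than of the MDA-MB-231 libraries, and in SUM159 cells their share was smaller after MBZ. They held 6.0% of the counts of the MDA-MB-231 DMSO library and 5.93% of those of the MDA-MB-231 MBZ library. In SUM159 cells they held 11.3% with DMSO and 7.87% with MBZ. The share of these counts that came from small subunit genes lay between 36.4% and 38.4%, so the balance of the subunits moved little while the total moved. Among the 100 genes with most counts, 18 and 23 were members in the MDA-MB-231 DMSO and MBZ libraries and 40 and 34 in those of SUM159 cells. The 95% binomial (Clopper-Pearson) interval of the members' share was 5.991% to 6.009% in the first library and 7.859% to 7.884% in the last, and such intervals cover counting error only, since reads copied by PCR are not independent molecules. In bulk RNA a smaller share of the library cannot be told apart from a change in other transcripts, nor fewer cells of a type from less RNA per cell. Genes of the mitochondrial genome held 2.68% and 2.75% of the counts in the MDA-MB-231 line and 4.04% and 4.10% in SUM159 cells.

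**Figure D1:**
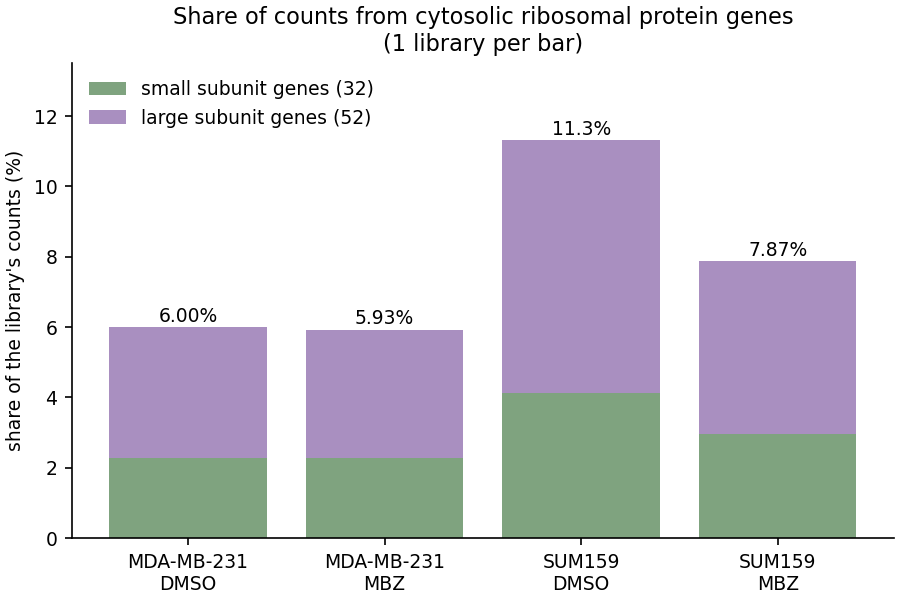
Share of each library's counts (percent, y axis) that came from the 84 cytosolic ribosomal protein genes, split into small and large subunit genes, with 1 library per bar. The SUM159 DMSO library stands highest at 11.3%, and the MDA-MB-231 libraries differ little at 6.0% and 5.93%.

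Gene by gene, the SUM159 DMSO library had the highest level of every abundant standard member. Levels are given in CPM (counts scaled to library size, here by TMM over the 4 libraries). Of the 77 standard members, 72 had a mean of at least 1000 counts, and all 72 were highest in the SUM159 DMSO library. Their median was 709 CPM in the MDA-MB-231 DMSO library, 634 in the MDA-MB-231 MBZ library, 1270 in the SUM159 DMSO library and 804 in the SUM159 MBZ library. The MDA-MB-231 MBZ library was lowest for 48 of the 72, the MDA-MB-231 DMSO library for 15 and the SUM159 MBZ library for 9. In the DMSO libraries, 76 of the 82 members compared in both lines were higher in SUM159 than in the MDA-MB-231 line. The median log2 ratio was 0.87 (quartiles 0.52 and 1.16), against -0.023 for all genes. Between the MBZ libraries the median log2 ratio of the members was 0.29. Each level rests on 1 library, so the height of the SUM159 DMSO library has no replicate check, and the lines were not tested against each other.

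**Figure D2:**
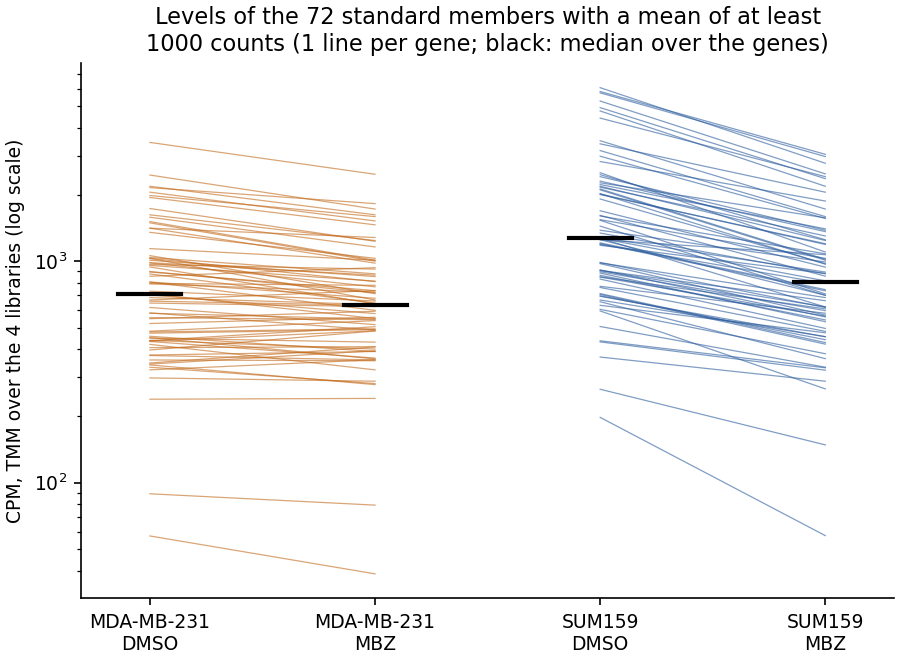
Levels in CPM (log scale, TMM over the 4 libraries) of the 72 standard members with a mean of at least 1000 counts, with 1 line per gene joining DMSO to MBZ within a cell line and black bars for the median over the genes. All 72 lines slope down in SUM159 cells, while those of MDA-MB-231 cells run both ways.

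Levels per length spanned a wide range among members. Counts were divided by the length of the coding sequence, although reads of untranslated parts are counted too, which raises the shortest genes most. RPL41, whose coding sequence has 75 bases, was highest with 9520 and 7350 CPM per kb in the MDA-MB-231 DMSO and MBZ libraries and 11800 and 7110 in those of SUM159 cells. By the mean over the 4 libraries RPLP1, RPL13A, RPL10 and RPS18 followed, an order that differs within single libraries, with RPLP1 at 9910 and RPL13A at 9990 CPM per kb in the SUM159 DMSO library. At the other end, RPL10L, a testis gene, had 0 counts in all 4 libraries, which allows up to between 0.120 and 0.175 CPM. RPL3L, known from heart and skeletal muscle, had 1 and 12 counts in the MDA-MB-231 line and 14 and 12 in SUM159 cells.

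Some standard members had few counts, which are hard to read as levels. RPS10 had 54, 45, 55 and 83 counts in the 4 libraries and RPL36A 89, 69, 41 and 92. RPL17 and RPL26 also had a mean under 1000 counts. In the annotation used here, 730 bases of RPS10 exons are shared with the read-through gene RPS10-NUDT3 and 611 bases of RPL17 exons with RPL17-C18orf32, 557 bases of RPL36A exons lie over GLA, and 360 bases of RPL26 exons are shared with another protein-coding gene (ENSG00000263809). HTSeq in union mode leaves out a read that falls on several genes, so these genes are reported as uncertain, and the part of overlap in their low counts was not tested. In all, 21 members shared over 10% of their exonic bases with another gene, and 78 have pseudogenes named after them.

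After MBZ, ribosomal protein transcripts were lower in SUM159 cells. Changes are given as log2 of MBZ over DMSO, scaled by TMM within the line, and a gene was compared where its 2 libraries averaged at least 10 counts. The median log2 fold change of the 83 members compared was -0.68 (0.626-fold, quartiles -0.89 and -0.52), against -0.034 for all genes. At least 1.5-fold lower were 53 members and at least 1.5-fold higher 4, while of all 15674 genes 21.7% were this much lower and 21.5% this much higher. All 72 abundant standard members were lower, the least being RPL35 at -0.22. Scaling by total counts instead adds 0.30 to every value in this line, and 71 of the 72 were then still lower, with RPL35 at 0.076. Under it 21 rather than 53 members were at least 1.5-fold lower, and the share of all genes this much lower was not computed. Relative to the median of all genes, 76 of the 83 members lay below it.

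RPL22, an RNA-binding protein of the large subunit, was furthest down. It (ENSG00000116251, chromosome 1 from 6185020 to 6209389, GRCh38) had 1335 and 735 counts in the MDA-MB-231 DMSO and MBZ libraries and 3271 and 1189 in those of SUM159 cells. Its log2 fold change in SUM159 cells was -1.78 (95% counting interval -1.87 to -1.68), and it was also among the lowest in the MDA-MB-231 line at -0.59 (-0.72 to -0.46). The SUM159 DMSO library was far above the other 3, which lay between 38.7 and 57.6 CPM.

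RPS9, which lies at the mRNA entry of the small subunit, came next in SUM159 cells. It (ENSG00000170889, chromosome 19 from 54200809 to 54249003) had 21900, 12204, 41641 and 22764 counts in the 4 libraries, and its log2 fold change was -1.19 (-1.21 to -1.16) in SUM159 cells and -0.57 (-0.60 to -0.54) in the MDA-MB-231 line. RPL23A, which lies at the tunnel exit where the growing chain leaves the ribosome, had 7907, 5267, 9875 and 5460 counts, with -1.17 (-1.22 to -1.12) in SUM159 cells. RPL13 had 35075, 19280, 79005 and 45057 counts and RPL13A, which is also known from interferon-induced translational control, 56835, 32694, 100734 and 57233. Both were at -1.13 in SUM159 cells. All 4 genes were lower with MBZ in each line.

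In MDA-MB-231 cells the changes were smaller, and their direction rested on the scaling. The median log2 fold change of 82 members was -0.20 (0.872-fold, quartiles -0.39 and -0.0032) with TMM within the line and 0.069 with scaling by total counts, which adds 0.27 to every value. Against the median of all genes, -0.018 and 0.25 under these scalings, the members' median stood at -0.18 under both, and 60 of the 82 lay below it. With TMM, 5 members were at least 1.5-fold lower and 1 higher, while of all 15142 genes 15.8% were this much lower and 18.3% this much higher. Of the 72 abundant standard members 58 were lower with TMM and 34 with total counts. With TMM, the share of members past 1.5-fold was thus below that of all genes in this line, and above it for lower genes in SUM159 cells. The shares of all genes include genes with few counts, whose fold changes carry more counting error.

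Among the lowest abundant members in the MDA-MB-231 line were genes of the large subunit that were lower under both scalings. RPL4, which lines the exit tunnel, had 34747 and 19086 counts in the MDA-MB-231 line and 73335 and 49785 in SUM159 cells, with log2 fold changes of -0.59 and -0.88. RPL13 and RPL22 were at -0.59 as well. RPL4, RPL13 and RPL22 were at least 1.5-fold lower in both lines.

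The highest abundant members in the MDA-MB-231 line were higher there and lower in SUM159 cells. RPL7 had 9222 and 9201 counts in the MDA-MB-231 DMSO and MBZ libraries, a log2 fold change of 0.27 (0.23 to 0.31), and 15141 and 11556 in those of SUM159 cells, a change of -0.71 (-0.74 to -0.67). RPL34 had 8063 and 7801 counts in the MDA-MB-231 line, a change of 0.22 (0.18 to 0.27), and 8399 and 6847 in SUM159 cells, a change of -0.61 (-0.66 to -0.56). The counts of both genes were near equal in the MDA-MB-231 libraries, of which the MBZ library was the smaller. RPL26 was highest in this line at 0.70 (0.54 to 0.86) with 547 and 737 counts, and at -0.24 in SUM159 cells with 319 and 336 counts, which turns to 0.06 under total counts. Its counts are uncertain for the overlap given above.

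**Figure D3:**
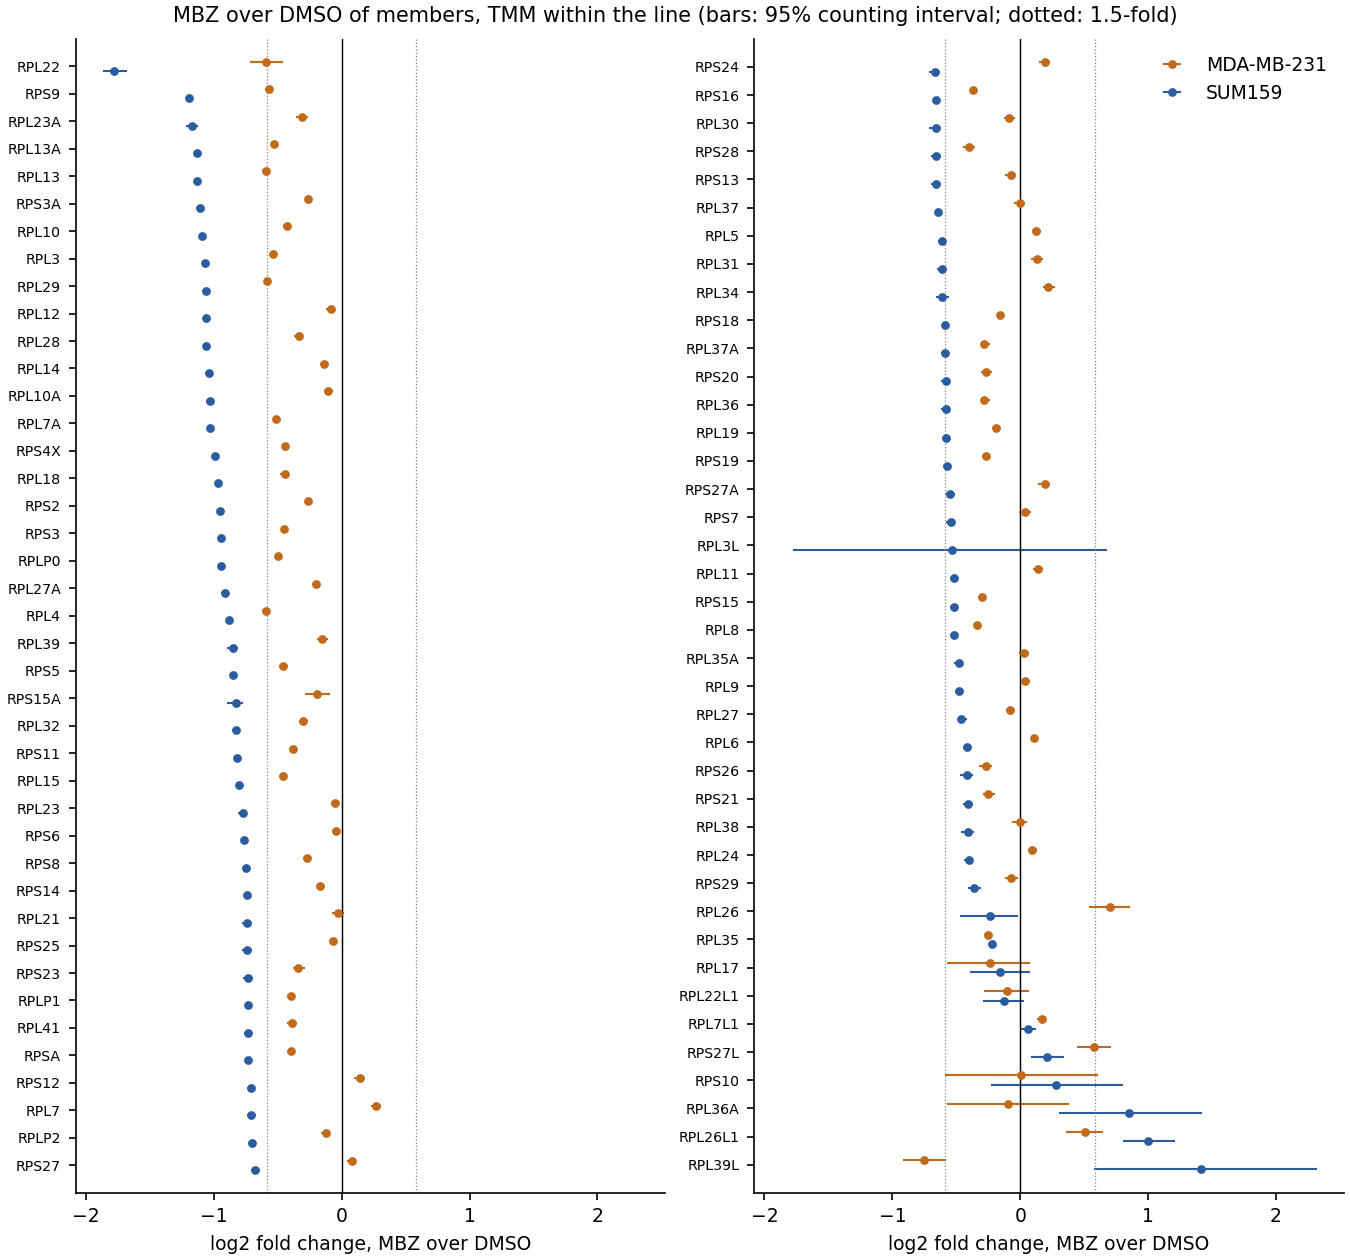
Log2 fold change of MBZ over DMSO (x axis, TMM within the line) of members with a mean of at least 10 counts (a few are not shown), ordered by the value in SUM159 cells, with 95% counting intervals that do not cover the spread between cultures and dotted lines at 1.5-fold. SUM159 values run from -1.78 for RPL22 to 1.41 for RPL39L, MDA-MB-231 values mostly lie to their right, and scaling by total counts would move all MDA-MB-231 points by 0.27 and all SUM159 points by 0.30 to the right.

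Side by side, the change in SUM159 cells lay below that in the MDA-MB-231 line for 75 of the 82 members compared in both. The difference had a median of -0.52 and ran from -1.19 for RPL22 to 2.16 for RPL39L. With TMM, 60 members were lower in both lines, 15 were higher in MDA-MB-231 and lower in SUM159 cells, 5 were higher in both and 2 were lower in MDA-MB-231 and higher in SUM159 cells. With both counting intervals off 0, 12 members were higher in the MDA-MB-231 line and lower in SUM159 cells and 1 the other way round, against 9.4% and 10.6% of 13733 genes of all depths. Across the 73 members with a mean of at least 1000 counts the changes of the lines went together more than across all genes, with a Pearson r of 0.59 against 0.08 for 4488 genes. Genes are not replicates and members share base composition and depth, so this is a description. With 1 library per condition the difference between the lines could not be tested.

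The small and the large subunit had similar medians. The median log2 fold change was -0.25 for 32 small subunit genes and -0.17 for 50 large subunit genes in the MDA-MB-231 line (0.012 and 0.10 under total counts), and -0.67 and -0.70 in SUM159 cells. At least 1.5-fold lower in SUM159 cells were 21 of 32 small and 32 of 51 large subunit genes, and in the MDA-MB-231 line 0 and 5. Of all genes, 21.7% were this much lower in SUM159 cells and 15.8% in the other line. Genes of the body of the small subunit were all lower in SUM159 cells (17 of 17, median -0.74), and 12 of 14 genes of its head were (median -0.59). RPS19, a head protein mutated in Diamond-Blackfan anemia, had 23545, 16200, 26519 and 22205 counts, with changes of -0.27 in MDA-MB-231 and -0.57 in SUM159 cells. RPS6, the substrate of S6 kinase, had 18450, 14786, 33235 and 24499 counts, with -0.76 in SUM159 cells and -0.047 in the MDA-MB-231 line, where total counts give 0.22. RPSA, also known as the laminin receptor, was at -0.40 and -0.73.

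Among large subunit genes, the 3 proteins of the P stalk, which recruits translation factors, were at least 1.5-fold lower in the SUM159 MBZ library, as were 21.7% of all genes, and under total counts RPLP0 alone of the 3 was. RPLP0 had 79974, 46945, 96752 and 62660 counts and changes of -0.50 in MDA-MB-231 and -0.94 in SUM159 cells. RPLP1 was at -0.40 and -0.73, and RPLP2 at -0.12 and -0.70. Total counts give -0.64, -0.43 and -0.40 for RPLP0, RPLP1 and RPLP2 in SUM159 cells and 0.14 for RPLP2 in the MDA-MB-231 line. RPL10, which sits near the peptidyl transferase center, had 45181, 27674, 87549 and 51226 counts with changes of -0.43 and -1.09, and RPL3, at the same center, was at -0.54 and -1.07.

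The genes of the 5S particle had positive values in the MDA-MB-231 line and negative ones in SUM159 cells. RPL5 had 15535 and 14016 counts in the MDA-MB-231 DMSO and MBZ libraries, a log2 fold change of 0.12 (0.091 to 0.16), and 22242 and 18099 in those of SUM159 cells, a change of -0.61 (-0.64 to -0.59). RPL11 had 10105, 9216, 16289 and 14125 counts, with 0.14 (0.10 to 0.18) and -0.52 (-0.55 to -0.49). The direction of both held under total counts in each line, and neither reached 1.5-fold in the MDA-MB-231 line.

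The paralogs mostly lay above the standard genes in SUM159 cells. Of 6 paralogs compared there, 2 (RPL26L1 and RPL39L, the latter with few counts) were at least 1.5-fold higher, as were 21.5% of all genes, and 0 lower, with a median of 0.14 on the log2 scale, against -0.71 for the 77 standard members. RPL26L1 (ENSG00000037241, chromosome 5 from 172958729 to 172969771), which lacks the pyrimidine run of RPL26, had 722 and 849 counts in the MDA-MB-231 DMSO and MBZ libraries, a change of 0.51 (0.36 to 0.65), and 286 and 714 in those of SUM159 cells, a change of 1.00 (0.80 to 1.21). RPS27L, a p53 target gene, had 835, 1030, 860 and 1240 counts, with 0.58 (0.44 to 0.71) and 0.21 (0.085 to 0.34). Both were higher with MBZ in each line under both scalings.

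RPL39L, a paralog of RPL39 best known from testis, differed most between the lines. It (ENSG00000163923, chromosome 3 from 187120948 to 187180908) had 829 counts in the MDA-MB-231 DMSO library and 408 in the MBZ library, a log2 fold change of -0.75 (-0.92 to -0.58), the lowest of all members there. In SUM159 cells it had only 16 and 53 counts, a change of 1.41 (0.58 to 2.32), the highest there. Its level in the SUM159 DMSO library was 0.966 CPM against 35.7 in the MDA-MB-231 DMSO library.

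Within pairs, the ratio of 2 genes in a library needs no scaling. RPL22L1 made up 32.3% of the counts of the RPL22 pair in the MDA-MB-231 DMSO library and 40.0% in the MBZ library, and 15.6% and 36.7% in SUM159 cells. The log2 ratio of RPL22L1 to RPL22 was higher with MBZ by 0.48 (0.27 to 0.70) in the one line and 1.65 (1.46 to 1.83) in the other. RPL22L1 itself went from 636 to 490 counts in the MDA-MB-231 line and from 605 to 688 in SUM159 cells. With TMM the interval of its own change held 0 in both, while total counts give changes of 0.16 and 0.17. RPL22 was lower in both lines under both scalings. RPS27L over RPS27 was higher in each line too, by 0.50 (0.36 to 0.64) and 0.89 (0.76 to 1.02).

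In the pairs of RPL7L1, RPL26L1 and RPL39L the share of the paralog was higher with MBZ in SUM159 cells and not in the MDA-MB-231 line, a difference that was not tested. RPL7L1, which resembles a yeast ribosome assembly factor, went from 55.0% to 53.2% of the counts of its pair with RPL7 in the MDA-MB-231 line and from 20.6% to 30.7% in SUM159 cells. RPL26L1 went from 56.9% to 53.5% of its pair with RPL26, where the interval of the change held 0, and from 47.3% to 68.0%. RPL39L went from 7.51% to 5.09% of its pair with RPL39 and from 0.147% to 0.703%. The few counts of RPL3L made up 0.00305% and 0.0644% of its pair with RPL3 in the MDA-MB-231 DMSO and MBZ libraries and 0.0171% and 0.0247% in those of SUM159 cells. Reads that match both genes of a pair or a pseudogene equally well are left out by HTSeq's default, so the shares rest on the parts that differ. RPL36AL, the partner of RPL36A that falls outside the rule, had 4501, 4139, 1572 and 1845 counts and changes of 0.15 and -0.085, the latter turning to 0.22 under total counts.

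**Figure D4:**
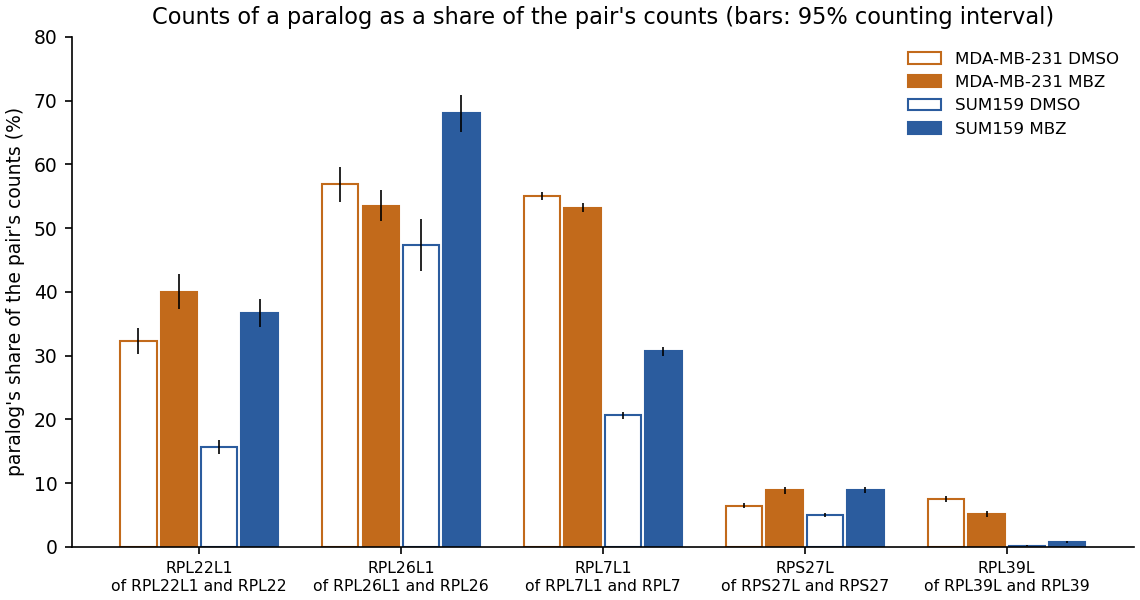
Counts of a paralog as a percentage of the counts of the pair (y axis) in the DMSO (open) and MBZ (filled) libraries of MDA-MB-231 and SUM159 cells, with 95% Clopper-Pearson intervals that cover counting error only. RPL22L1 goes from 15.6% to 36.7% in SUM159 cells and from 32.3% to 40.0% in the MDA-MB-231 line, while RPL39L stays below 1% of its pair in SUM159 cells.

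Members with a pyrimidine run at the annotated start were lower in SUM159 cells by somewhat more than those without. In SUM159 cells the 43 members with the run had a median of -0.73, with 32 at least 1.5-fold lower, and the 23 compared members without it -0.54, with 9, where 21.7% of all genes were this much lower. The members without the run include the paralogs RPL26L1, RPS27L and RPL7L1, and the other 20 had a median of -0.57 with the same 9, an alternative chosen after seeing the data. In MDA-MB-231 cells the medians were -0.17 and -0.19 (0.10 and 0.077 under total counts). RPL39, with the longest run shown, had 10208, 7615, 10864 and 7481 counts and a change of -0.85 in SUM159 cells, and RPL35, with a run of 11 bases, was the abundant standard member with the value nearest 0. The difference between the groups was not tested.

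Other transcripts known as TOP mRNAs were lower in SUM159 cells as well. Of 24 compared, 17 were at least 1.5-fold lower and 0 higher (median -0.87), and in the MDA-MB-231 line 6 lower and 0 higher (median -0.21, 0.059 under total counts), against 21.7% and 15.8% of all genes this much lower. EEF1A1, the elongation factor that delivers aminoacyl-tRNA, had 261282 and 184778 counts in the MDA-MB-231 DMSO and MBZ libraries and 412872 and 239988 in those of SUM159 cells, with changes of -0.23 (0.039 under total counts) and -1.10. EEF2, the translocation factor, was at -0.62 and -1.42. RACK1, a scaffold on the small subunit, was at -0.61 and -1.12, and TPT1 at -0.18 (0.082 under total counts) and -1.08. FAU, which encodes a ribosomal protein fused to a ubiquitin-like protein and falls outside the rule, was at -0.54 in SUM159 cells.

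Genes that build ribosomes had medians above 0 in both lines. Of 36 ribosome biogenesis genes, 5 were at least 1.5-fold higher and 1 lower in SUM159 cells (median 0.26), and 4 higher and 1 lower in the MDA-MB-231 line (median 0.078). Of all genes, 21.5% were this much higher in SUM159 cells and 18.3% in the other line. FBL, the methyltransferase of box C/D particles, was at -0.76 in MDA-MB-231 and 0.29 in SUM159 cells, and NCL, nucleolin, at -0.079 and -0.25, which turn to 0.19 and 0.056 under total counts. A list of 10 subunits of RNA polymerases I and III and 8 factors that act with them, including UBTF and the repressor MAF1, had medians of 0.025 and -0.0092, with 0 higher and 2 lower of 18 in the MDA-MB-231 line and 1 and 1 in SUM159 cells. The 10 subunits alone had medians of -0.23 (0.040 under total counts) and 0.036. A list of 24 initiation factors outside the TOP list, with LARP1 and the eIF4E inhibitors EIF4EBP1 and EIF4EBP2, had medians of -0.082 and -0.048 over its 27 genes, with 1 higher and 2 lower in the MDA-MB-231 line and 2 and 1 in SUM159 cells, where EIF4EBP1 (0.71) and EIF4EBP2 (-0.65) were 2 of the 3.

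The initiation factors counted among the TOP mRNAs had lower values in SUM159 cells. Of these 8, 6 were at least 1.5-fold lower there (median -1.13), from EIF4B at -1.37 to EIF3K at 0.058, and 2 in the MDA-MB-231 line (median -0.094, 0.17 under total counts), where of all genes 15.8% were this much lower, against 21.7% in SUM159 cells. With them and without LARP1 and the inhibitors, 32 initiation factors had medians of -0.049 (0.22 under total counts) in the MDA-MB-231 line and -0.14 (0.16) in SUM159 cells, with 6 lower and 1 higher in the latter. These divisions of the lists were made after their values were seen.

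Genes of the mitochondrial ribosome had a median above 0 in SUM159 cells, with fewer past 1.5-fold than among all genes. Of 78 genes, 13 were at least 1.5-fold higher and 3 lower in SUM159 cells (median 0.21), and 2 higher and 6 lower in the MDA-MB-231 line (median -0.020, 0.25 under total counts). The shares of all genes, over counts of all depths, were 21.5% higher and 21.7% lower in SUM159 cells and 18.3% and 15.8% in the other line. MYC, a transcription factor known to drive ribosome synthesis, had 2823 and 3665 counts in the MDA-MB-231 line, a change of 0.65, and 6980 and 7211 in SUM159 cells, a change of -0.27 that turns to 0.032 under total counts. The lists differ in level and length, and their medians were not tested against each other.

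**Figure D5:**
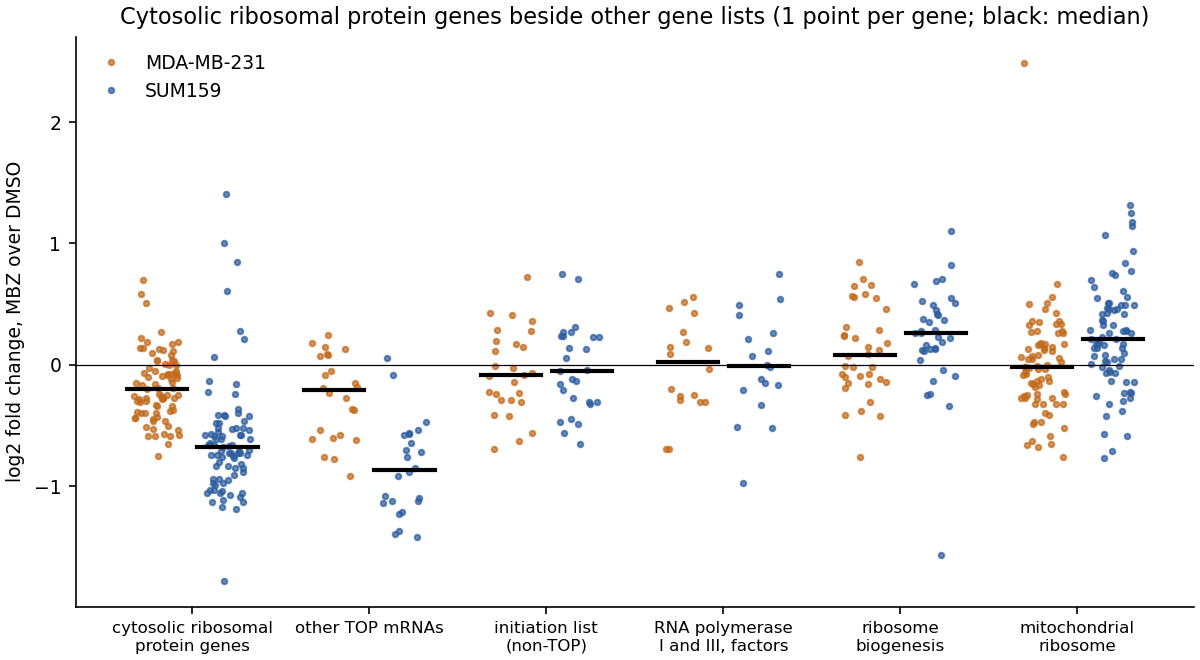
Log2 fold change of MBZ over DMSO (y axis, TMM within the line) of single genes in 6 lists, with MDA-MB-231 cells in orange, SUM159 cells in blue and the median as a black bar. In SUM159 cells the cytosolic ribosomal protein genes (-0.68) and other TOP mRNAs (-0.87) lie below 0 and the ribosome biogenesis (0.26) and mitochondrial ribosome (0.21) lists above it. Total counts would raise all MDA-MB-231 points by 0.27, which turns the 4 negative medians positive there, and all SUM159 points by 0.30, which turns the medians of the initiation list (without the factors counted as TOP mRNAs, with 2 inhibitors and LARP1) and of the RNA polymerase list (with 8 factors that are not subunits) positive.

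Base composition went with the members' changes in the MDA-MB-231 line, while genes of G2/M of the cell cycle went opposite ways in the lines. In MDA-MB-231 cells the change of the 73 abundant members had a Pearson r of -0.61 with the GC content of the coding sequence. Over 4449 genes with the same minimum mean of 1000 counts, not matched in depth, it was -0.27. The 24 members lowest in GC (42.5% to 47.9%) had a median of 0.013 and the 24 highest (54.2% to 63.0%) of -0.39, and all genes in the latter range had -0.34. In SUM159 cells r was -0.14 for the members and the medians of these groups were -0.66 and -0.81, negative in both groups. With the log2 mean count, r in the MDA-MB-231 line was -0.47 for the members and -0.18 for 4488 genes with that minimum. Of 25 G2/M genes, 20 were at least 1.5-fold lower and 0 higher in the MDA-MB-231 line (median -0.91) and 25 higher and 0 lower in SUM159 cells (median 2.40). Of all genes, 15.8% were this much lower and 18.3% higher in the MDA-MB-231 line, and 21.7% lower and 21.5% higher in the other. The part of GC content, of depth and of the cell cycle in the members' changes was not tested.

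A change alike in both lines was not detected for any member. With the 2 lines standing in for replicates, edgeR's quasi-likelihood test called 0 of the 83 members tested at a Benjamini-Hochberg adjusted p under 0.05, and 1 of 16100 genes (0.00621%). DESeq2 also called 0 members. At an unadjusted p under 0.05 there were 2, RPL22 with a log2 fold change of -1.15 ± 0.37 (SE, adjusted p = 0.609 in edgeR's test) and RPL26L1 with 0.79 ± 0.31 (adjusted p = 0.668 in the same test). The fitted change was negative for 74 of the 83 members, with a median of -0.37. This test takes its spread from how the lines differ in response and says nothing of the spread between cultures.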

How the data were processed

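The authors sequenced 4 libraries of mRNA-enriched RNA as 150-base paired reads on an Illumina NovaSeq, mapped them to GRCh38 with STAR 2.5 and counted reads per gene with HTSeq 0.6.1 in union mode (versions from the submitters' processing notes, which also list edgeR 3.16.5). The deposited values are raw counts. Annotation release and strand setting are not given in the sources used here. Symbols were matched by Ensembl identifier for 58207 of 58735 genes, with coordinates, exons and coding sequences from GENCODE release 44 and starts from RefSeq (GRCh38.p14). The members and gene lists were chosen with earlier results of these data known.

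Log2 fold changes were computed in R 4.3.3 with edgeR 4.0.16 as differences of log2 CPM (prior count 0.125, TMM within a line), with a threshold of 1.5-fold and a mean of at least 10 counts. Intervals of fold changes are 95% Clopper-Pearson intervals (computed in R) on the reads of a gene that came from the MBZ library. Those of shares are 95% Clopper-Pearson intervals from scipy. For a ratio of paralogs they are normal intervals of the log ratio from the counts. With 1 library per condition, the fold changes carry no error from replicates. The shared test was edgeR's quasi-likelihood test on line and treatment with TMM over 4 libraries, with DESeq2 1.42.0 as an alternative. It was tried on simulated counts with less spread than these data and larger changes than those of the members. That trial does not show what the test can detect here. Genes named were the 5 highest and lowest members by fold change per line, those with extreme levels, a fixed set of subunit genes, each paralog with its partner, and a few genes per other list. Some of these genes are not reported here, though counts and medians over the members include them. Alternatives were other scalings, count minimums, prior counts and thresholds, and leaving out paralogs or overlapping members.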

Additional observations from a re-analysis of the deposited data

Results flagged for a closer look

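For 13 of 82 members compared in both lines the change went one way in MDA-MB-231 cells and the other way in SUM159 cells, with both counting intervals off 0. With 1 library per condition, the difference was not tested for any of them. Of these, 12 were higher in MDA-MB-231 and lower in SUM159 cells, and the log2 fold change in SUM159 minus that in MDA-MB-231 cells was -0.98 for RPL7, -0.94 for RPL26, -0.86 for RPS24, -0.85 for RPS12, -0.84 for RPL34, -0.75 for RPS27, -0.74 for RPL31, RPL5 and RPS27A, -0.66 for RPL11, -0.53 for RPL6 and -0.50 for RPL24. RPL39L was the exception at 2.16, lower in MDA-MB-231 and higher in SUM159 cells. The GC content of the coding sequences of the other 12 ran from 43.41% for RPL7 to 50.75% for RPL11. Among abundant members in the MDA-MB-231 line, the 24 lowest in GC had a median of 0.013 and the 24 highest of -0.39. The part of GC content in these opposite signs was not tested. Of all 13733 genes compared in both lines, 9.4% met the same rule in the first direction and 10.6% in the second, over counts of all depths, and deeper genes have narrower intervals. RPS12, for example, had 11216 and 10254 counts in the MDA-MB-231 DMSO and MBZ libraries and 19934 and 15167 in those of SUM159 cells. Scaling by total counts left 12 of the 13 with opposite signs. Under it, and without regard to the intervals, 38 members in all had opposite signs, 37 of them higher in MDA-MB-231 cells. The share of all genes under that rule was not computed, so these 2 counts cannot be set against it.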

How the results depend on the processing

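The scaling decided the direction in MDA-MB-231 cells. There the members' median was 0.069 with total counts and 0.068 with total counts of all other genes, against -0.25 with DESeq2 size factors and -0.24 without paralogs. Members at least 1.5-fold higher numbered 3 under either total, 2 with TMM over 4 libraries or with every member that had at least 1 count, and 0 without overlapping members or at a threshold of 2-fold. Members lower numbered 8 with DESeq2 size factors, 2 with TMM over 4 libraries, and 0 under either total or at 2-fold. In SUM159 cells the median stayed negative, at -0.37 and -0.43 under the totals and -0.71 without paralogs. Lower members there numbered 21 and 25 under the totals and 14 at 2-fold, and higher members 2 with a mean of at least 100 counts, without paralogs, without overlapping members and at 2-fold. Without mitochondrial genes the members' shares were 6.17%, 6.10%, 11.8% and 8.21% in the MDA-MB-231 DMSO, MDA-MB-231 MBZ, SUM159 DMSO and SUM159 MBZ libraries, and with their pseudogenes 6.04%, 5.97%, 11.5% and 8.0%. The other 48 values kept their direction, with counts within 1.5-fold. Among them the members lower in SUM159 cells numbered 40 rather than 53 without overlapping members, and the small minus large subunit difference of medians there was 0.052 rather than 0.028 without paralogs. Without paralogs, chosen after seeing the data, members lacking the pyrimidine run had a median of -0.26 rather than -0.19 in MDA-MB-231 cells. Also chosen after seeing the data, the polymerase subunits alone had medians of -0.23 in MDA-MB-231 and 0.036 in SUM159 cells, against 0.025 and -0.0092 for the whole list, and initiation factors of both lists -0.14 in SUM159 cells rather than -0.048. The shared test called 0 members under each alternative, while among all genes it called 1 of 16100 with edgeR, 100 of 14321 with DESeq2 and 298 of 32295 with every gene included. The shared test compares DMSO and MBZ within each line, and no replicate number pairs cultures, since each group has 1 sample. Counting error limits few members, but the spread between cultures is unknown for all.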

Other observations

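Some processed pseudogenes had far more counts in SUM159 than in MDA-MB-231 cells, and these were chosen after their values were seen. RPS2P5 (chromosome 12 from 118246084 to 118246962) had 88 and 72 counts in the MDA-MB-231 DMSO and MBZ libraries and 22384 and 14392 in those of SUM159 cells. For every 100 counts of RPS2 these were 0.176 and 0.209 counts in the MDA-MB-231 line and 23.5 in both SUM159 libraries. Its log2 fold change of -0.95 in SUM159 cells equalled that of RPS2. RPL13P12 had 38, 29, 1841 and 1125 counts and RPS2P46 50, 36, 2507 and 1472 in the same order. RPL41P1 was counted in each line, with 17.7 to 24.2 counts for every 100 of RPL41. Over all 1599 pseudogenes named after members, there were 0.588 and 0.666 counts for every 100 of the members in the MDA-MB-231 line and 1.73 and 1.69 in SUM159 cells. Whether these reads came from the pseudogenes or from transcripts of their parent genes was not tested.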
